A study of Mus musculus with 8 samples.

Results

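The 10 genes described here encode the IKK complex (Ikbkg, Ikbkb, Chuk), the NF-kB subunits (Rela, Relb, Rel, Nfkb1, Nfkb2) and 2 IkB proteins (Nfkbia, Nfkbib). They were taken by symbol from a liver count table of 55487 genes. All 10 were found there, and all 10 were among the 15598 genes left after a filter on low counts.

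NF-kB transcription factors are pairs of Rel-family proteins that IkB proteins hold in the cytoplasm. In the canonical pathway the kinase IKKbeta (Ikbkb), together with IKKalpha (Chuk) and the regulatory subunit NEMO (Ikbkg), phosphorylates IkBalpha (Nfkbia), which is then degraded and frees dimers such as p65 (Rela) with p50 (made from Nfkb1). In the non-canonical pathway IKKalpha acts without NEMO on p100, the precursor made from Nfkb2, and its processing to p52 frees dimers with RelB. NEMO also carries a signal from DNA breaks in the nucleus to the cytoplasmic IKK complex, and in liver the pathway is known both for protecting hepatocytes from death by TNF and for inflammatory signaling in macrophages.

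RNA came from livers of 8 mice, 1 library each. There were 2 mice of genotype NEMO DK; Ercc1-/D (here NemoDK_Ercc1), both 11.8 weeks old, and 2 Ercc1 -/D mice (here Ercc1), 15.1 and 13.7 weeks old. There were 4 WT mice, 10.7, 12.3, 11.1 and 11.8 weeks old. ERCC1 is a subunit of a DNA repair endonuclease. Both Ercc1 mice were older than every other mouse, and NemoDK_Ercc1 mice carry the Ercc1 genotype as well as NEMO DK, so that change was measured only on an Ercc1-deficient background. The labels do not say what DK stands for or in which cells the alleles act, and no NEMO DK group with intact Ercc1 was analysed here. The question behind the design, as the series title words it, is how NF-kB is activated by DNA damage that arises within the body.

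Libraries held 21556570 to 27812478 counts. The hepatocyte gene Alb was abundant in every library, with 62710 to 69570 CPM (counts divided by TMM-scaled library size) in mutant livers and 73970 to 106300 CPM in WT livers. Ercc1 itself had 1.87 and 1.86 CPM in NemoDK_Ercc1, 1.76 and 1.49 CPM in Ercc1, and 5.04, 2.57, 3.58 and 4.44 CPM in WT, lower in every mutant library than in any WT library. All 8 mice are labelled female. WT library 3 goes against its label: it had no Xist counts, where the remaining libraries had 9331 to 15744, and its 4 Y-linked genes summed to 3087 counts, where no other library had more than 10. Ikbkg and Xist lie on the X chromosome, and member results are therefore also given without that library.

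Between both Ercc1-deficient groups and WT, Ikbkg, Relb and Nfkb2 rose, while Ikbkb, Chuk and Nfkbia fell. Rela, Rel, Nfkb1 and Nfkbib did not pass the test. The 6 of 10 members called, at an adjusted p under 0.05 in edgeR's quasi-likelihood test over all genes, stand against 28.8% of all tested genes. The 3 higher members stand against 14.9% of genes called higher, and the 3 lower against 13.9% called lower. The median log2 fold change over the 10 members was -0.06, and over all tested genes it lay at 0 to 2 decimals. Groups did not overlap for 5 members, against 30.8% of all genes, of which 3 were higher (15.8% of genes) and 2 lower (15% of genes). Without WT library 3, 5 of the 10 were called, and Nfkbia was the one lost (adjusted p = 0.0596). The split was not stable: without any single mutant library 2 or 3 members were called, all higher, and without WT library 1 or 4 there were 4, of which 3 were higher. Upper-quartile factors left 3 higher and 0 lower, library size alone gave 4 higher and 0 lower, and age as a covariate left 1.

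**Figure D1:**
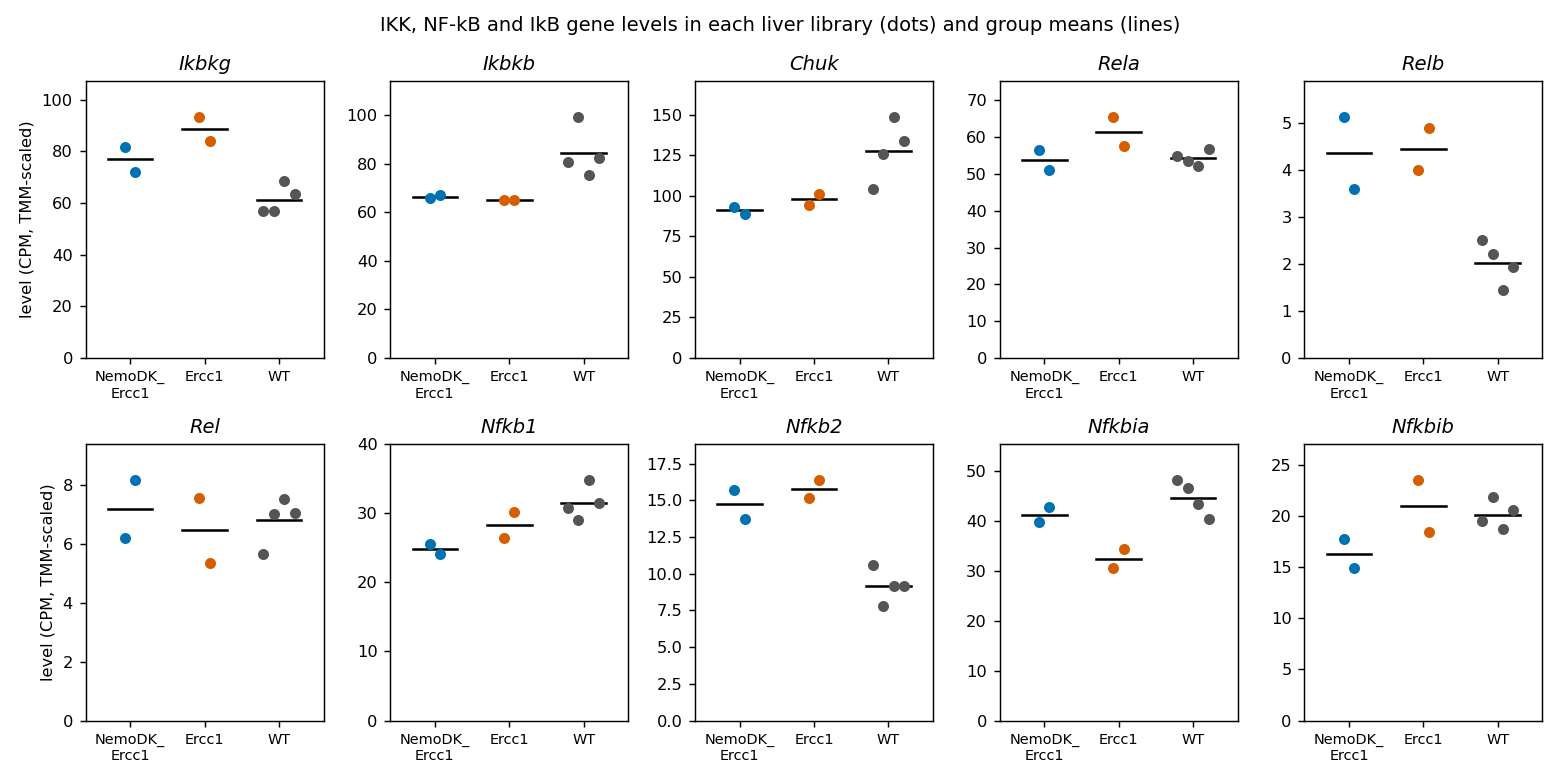
Level of each member (y axis, CPM with TMM scaling) in the livers of NemoDK_Ercc1, Ercc1 and WT mice (x axis). Dots are single libraries and lines are group means, over 2, 2 and 4 libraries. All 4 mutant dots lie above all WT dots for Ikbkg, Relb and Nfkb2, and below them for Ikbkb and Chuk.

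The 2 single-genotype comparisons share the 4 WT libraries and so are not independent of each other. Ercc1 against WT gave 4 calls (Ikbkg, Relb and Nfkb2 higher, Nfkbia lower), where 20.8% of all genes were called, 11.3% higher and 9.5% lower. In it 7 members had groups that did not overlap, 4 higher and 3 lower (42.6% of genes, 21.3% in each direction). NemoDK_Ercc1 against WT gave 2 calls (Relb and Nfkb2 higher), where 18% of all genes were called, 10.6% higher and 7.4% lower. In it 7 members had groups that did not overlap, 3 higher and 4 lower (46.9% of genes, 24.8% higher and 22.1% lower). NemoDK_Ercc1 against Ercc1 gave 0 calls among the 10 members, and 0% of all tested genes were called in edgeR. At an unadjusted p under 0.05 that last comparison had 1 member (Nfkbia) and 1062 genes, and DESeq2 called 71 genes, none of them a member.

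**Figure D2:**
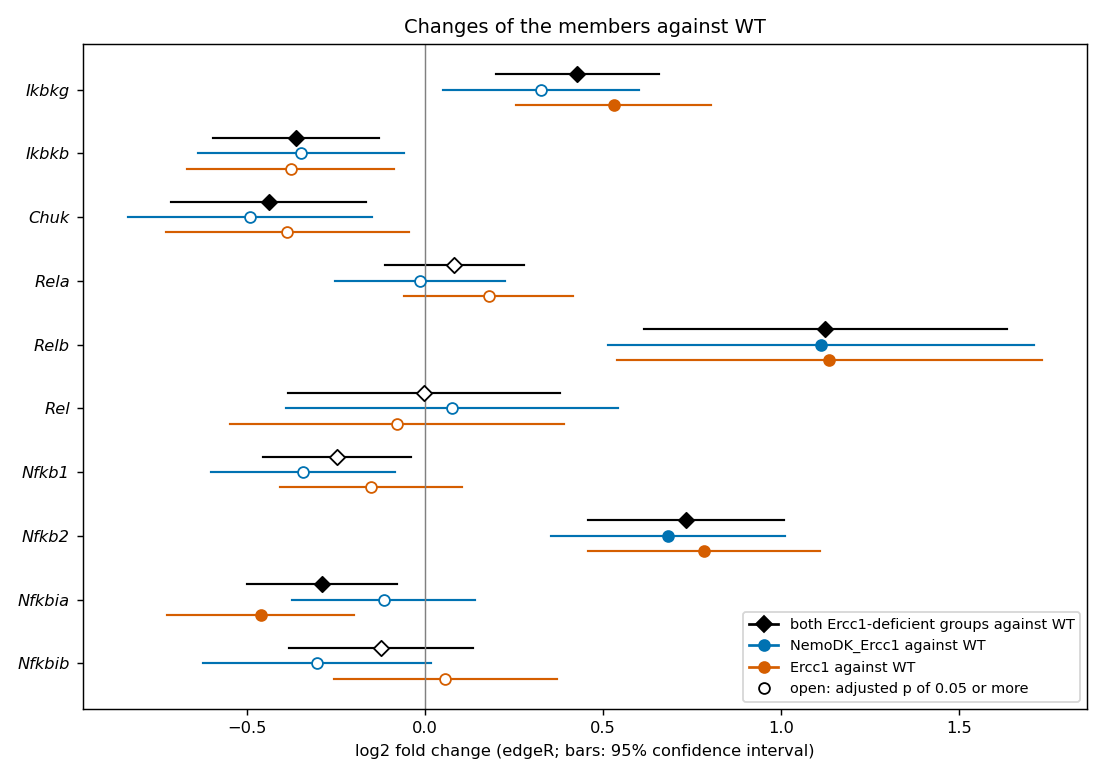
Log2 fold change (x axis) of each member (y axis) for both Ercc1-deficient groups together, NemoDK_Ercc1 and Ercc1, each against WT. Bars are 95% confidence intervals from edgeR and filled symbols have an adjusted p under 0.05. Relb and Nfkb2 are filled in all 3 comparisons.

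Ikbkg, the gene of NEMO, lies on chromosome X at 74393290 to 74453854 (GRCm38, plus strand). It had 81.9 and 71.9 CPM in NemoDK_Ercc1 livers, 93.3 and 84.0 CPM in Ercc1 livers, and 56.8, 56.9, 68.4 and 63.4 CPM in WT livers. All 4 mutant libraries lay above all 4 WT libraries, and both Ercc1 libraries lay above both NemoDK_Ercc1 libraries. Against WT the 2 mutant groups together were higher by 0.43 ± 0.10 on the log2 scale (SE, 1.35-fold, edgeR adjusted p = 0.0143), and Ercc1 alone by 0.53 ± 0.12 (adjusted p = 0.0167). Without WT library 3 the joint difference was 0.49 (adjusted p = 0.00974), and without NemoDK_Ercc1 library 1 the call ended (0.38, adjusted p = 0.0688). The call in Ercc1 alone ended without Ercc1 library 1 (largest adjusted p = 0.117).

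NemoDK_Ercc1 alone stood 0.33 ± 0.12 above WT, which did not pass the test (adjusted p = 0.096). NemoDK_Ercc1 minus Ercc1 was -0.20 with a 95% interval of -0.53 to 0.12, so no difference in Ikbkg RNA was detectable with 2 mice per genotype. A count summed over a gene shows neither an allele's sequence nor its protein, and so does not check the NEMO DK label. G6pdx, an enzyme gene on the opposite strand, overlaps 418 bases (5.2%) of the Ikbkg exons. It had 5.42 to 8.79 CPM in mutant livers and 3.90 to 14.6 CPM in WT livers, overlapping and far below Ikbkg (log2 difference -0.20, adjusted p = 0.723).

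The kinase subunits went the other way. Chuk, which encodes IKKalpha, had 93.1 and 88.9 CPM in NemoDK_Ercc1, 94.5 and 101 CPM in Ercc1, and 104, 125, 148 and 134 CPM in WT. The groups did not overlap, although Ercc1 library 2 and WT library 1 came close to each other. Chuk fell by 0.44 ± 0.12 on the log2 scale in the mutant groups together (0.738-fold, adjusted p = 0.0269, and -0.35 with adjusted p = 0.0451 without WT library 3).

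Ikbkb, which encodes IKKbeta, had 65.9 and 67.0 CPM in NemoDK_Ercc1, 64.9 and 65.3 CPM in Ercc1, and 80.9, 99.3, 75.3 and 82.5 CPM in WT. The 4 mutant libraries stayed within 64.9 to 67.0 CPM, a coefficient of variation of 1.37%, against 12.2% in WT. Ikbkb fell by 0.36 ± 0.10 (0.778-fold, adjusted p = 0.0304, and -0.41 with adjusted p = 0.0209 without WT library 3). Neither kinase passed in a single genotype (adjusted p = 0.0548 and 0.0928 for Chuk and Ikbkb in NemoDK_Ercc1, and 0.0998 and 0.0679 in Ercc1). Both calls also depended on scaling: with library size alone, which moves the median of all genes by 0.27, they were -0.17 (Chuk, adjusted p = 0.316) and -0.09 (Ikbkb, adjusted p = 0.48). The same scaling gave Ikbkg 0.69. Both kinase calls ended without any single mutant library or without WT library 4, and that of Ikbkb also without WT library 1 (largest adjusted p = 0.0959 for Chuk and 0.103 for Ikbkb).

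Ratios of counts within a library do not depend on that scaling. Ikbkg to Chuk was 0.880 and 0.809 in NemoDK_Ercc1, 0.987 and 0.831 in Ercc1, and 0.547, 0.454, 0.461 and 0.475 in WT. Every mutant ratio was above every WT ratio, with a gap between the groups wider than the range within WT. Ikbkb to Chuk was 0.646 to 0.754 in the mutant libraries, within the WT range of 0.508 to 0.792.

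**Figure D3:**
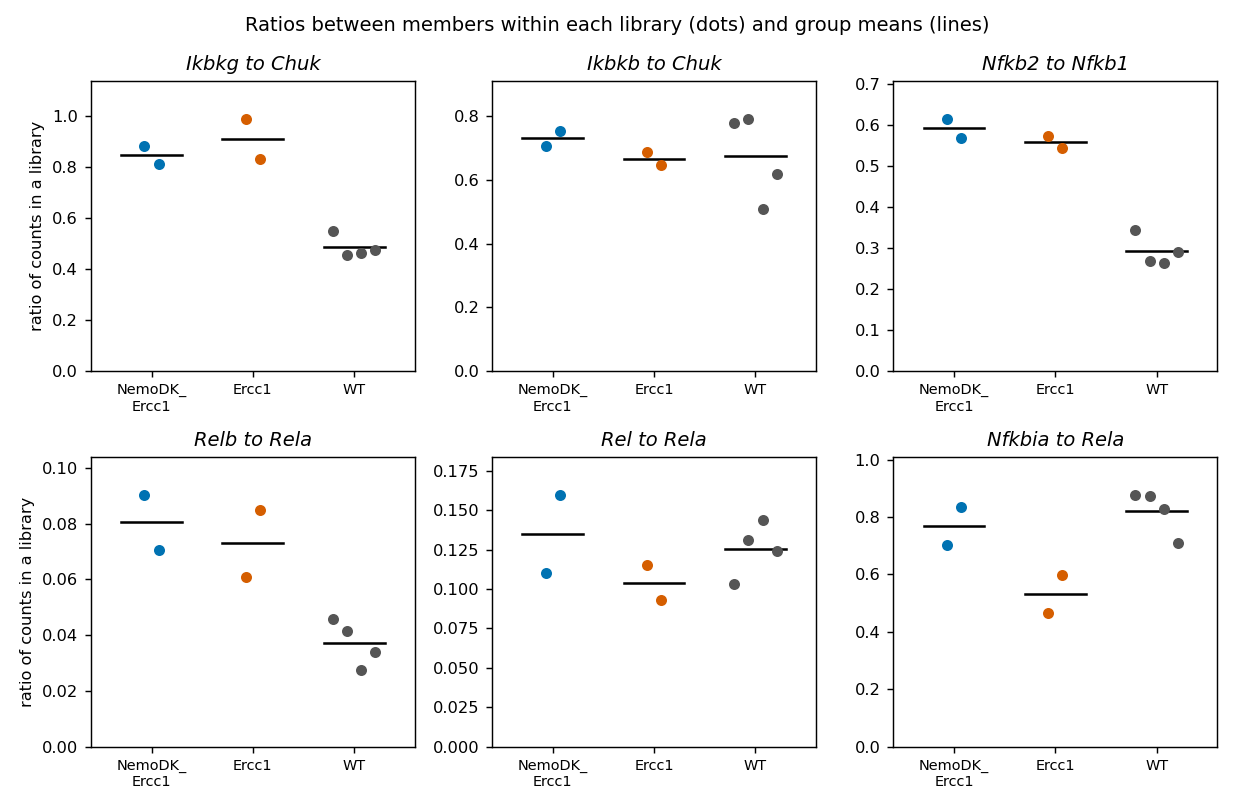
Ratio of the raw counts of 2 members within each library (y axis) for NemoDK_Ercc1, Ercc1 and WT livers (x axis). Dots are libraries and lines are group means, over 2, 2 and 4 libraries. Ikbkg to Chuk, Nfkb2 to Nfkb1 and Relb to Rela are higher in every mutant library than in any WT library, while Ikbkb to Chuk, Rel to Rela and Nfkbia to Rela overlap.

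Levels of different genes can be compared only per length. Per kilobase of the longest principal transcript, the IKK sum in a library was made of 46.6% and 46.4% Chuk in NemoDK_Ercc1, 45.8% and 48.5% in Ercc1, and 48.9%, 49.8%, 57.7% and 54.1% in WT. Ikbkg held 21.2% and 19.4% in NemoDK_Ercc1, 23.4% and 20.8% in Ercc1, and 13.8%, 11.7%, 13.7% and 13.2% in WT. Ikbkg was thus the least abundant IKK subunit RNA in all 8 libraries on this scale, but by a smaller margin in the mutants. Per kilobase of all annotated exons merged, Ikbkb came below Ikbkg instead, because its merged exons span 19078 bases against 3580 in its principal transcript.

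On the same scale of principal transcripts, in RPKM (CPM for each kilobase) averaged over the 8 libraries, Chuk came first at 31.7, then Nfkbia at 25.8, Ikbkb at 21 and Rela at 20.6. Ikbkg followed at 10.6, Nfkbib at 9.41, Nfkb1 at 7.05, Nfkb2 at 3.89, Relb at 1.46 and Rel at 0.913. The library ranges of neighbours overlapped for Chuk and Nfkbia, Nfkbia and Ikbkb, Ikbkb and Rela, Ikbkg and Nfkbib, Nfkbib and Nfkb1, and Relb and Rel when all 8 libraries were pooled, and several of those orders differed by genotype. Rela lay above Ikbkg, Nfkb1 above Nfkb2 and Nfkb2 above Relb in ranges that did not touch. Relb had 1.63 to 2.32 RPKM in NemoDK_Ercc1 and 1.81 to 2.21 in Ercc1, above Rel in every library of those groups (means 0.964 in NemoDK_Ercc1 and 0.865 in Ercc1), while in WT the 2 genes averaged 0.917 and 0.912. Ikbkb lay below Rela in both mutant groups (means 18.6 and 19.8 in NemoDK_Ercc1, 18.2 and 22.7 in Ercc1) and above it in WT (23.6 and 20). Ikbkg lay above Nfkbib in both mutant groups (11.3 and 7.91 in NemoDK_Ercc1, 13.1 and 10.2 in Ercc1), and in WT the 2 ranges overlapped (9.04 and 9.77). Some of these orders depend on the length used. Per kilobase of merged exons, Nfkb1 averaged 2.41 RPKM (2 to 2.89) and Nfkb2 2.66 (1.7 to 3.58), in ranges that overlapped. On that scale Ikbkb lay below Rela in WT as well (means 4.43 and 17.7). In NemoDK_Ercc1 library 2, Relb (0.927) then lay below Rel (1.095).

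Among the NF-kB subunits, only the pair of the non-canonical pathway, RelB and p100/p52, passed the test against WT. Nfkb2 had 15.7 and 13.7 CPM in NemoDK_Ercc1, 15.2 and 16.4 CPM in Ercc1, and 10.6, 7.81, 9.17 and 9.15 CPM in WT. Every mutant library was above every WT library, and the 2 mutant groups overlapped each other. Opposite-strand genes overlap 11.6% (4833438C02Rik, a non-coding RNA) and 6.5% (Psd) of the Nfkb2 exons. Their levels were 2.46 to 5.08 CPM and 0.460 to 0.763 CPM in mutant livers, overlapping the 2.27 to 4.18 CPM and 0.437 to 1.06 CPM of WT livers. Nfkb2 rose by 0.73 ± 0.12 on the log2 scale in the mutant groups together (1.66-fold, adjusted p = 0.00327), by 0.68 ± 0.14 in NemoDK_Ercc1 (adjusted p = 0.0148) and by 0.78 ± 0.14 in Ercc1 (adjusted p = 0.00737).

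Relb had 5.13 and 3.60 CPM in NemoDK_Ercc1, 3.995 and 4.89 CPM in Ercc1, and 2.52, 2.22, 1.44 and 1.93 CPM in WT. These are 156 and 85 counts, 109 and 144 counts, and 33 to 52 counts in WT, the lowest counts of any member. The groups did not overlap, and Relb rose by 1.12 ± 0.22 (2.18-fold, 95% interval 1.53 to 3.10, adjusted p = 0.00753), the largest fold among the 10 members. The joint calls of Relb and Nfkb2 held without each library in turn (largest adjusted p = 0.0373 for Relb and 0.0207 for Nfkb2), and without WT library 3 the differences were 0.998 and 0.74. In NemoDK_Ercc1 alone, both calls ended without either of its 2 libraries, and that of Relb also without WT library 4. In Ercc1 alone, that of Relb ended without either Ercc1 library. With age as a covariate the joint call of Nfkb2 held (1.01, adjusted p = 0.0306), and those of Relb (1.28, adjusted p = 0.106) and Ikbkg (0.39, adjusted p = 0.243) did not.

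The other subunits did not pass the test. Rela, the p65 gene and the most abundant subunit RNA per length, had 56.6 and 51.1 CPM in NemoDK_Ercc1, 65.5 and 57.6 CPM in Ercc1, and 52.3 to 56.9 CPM in WT (joint log2 difference 0.08, 95% interval -0.11 to 0.28). Library size alone turned it into a call (0.35, adjusted p = 0.0164), under the scaling that moves the median of all genes by 0.27. Rel, the c-Rel gene of lymphoid and myeloid cells, had 5.36 to 8.18 CPM in the mutant libraries and 5.67 to 7.51 CPM in WT, with the 2 extremes both in mutant mice and an interval of -0.38 to 0.38.

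Nfkb1, which encodes p105 and p50, had 25.5 and 24.2 CPM in NemoDK_Ercc1, 26.5 and 30.2 CPM in Ercc1, and 30.7, 29.0, 34.8 and 31.4 CPM in WT. Only Ercc1 library 2 reached into the WT range, and the joint difference of -0.25 ± 0.09 missed the threshold (adjusted p = 0.0748). Nfkb2 to Nfkb1, the ratio of the 2 precursor genes, was 0.615 and 0.568 in NemoDK_Ercc1, 0.573 and 0.543 in Ercc1, and 0.344, 0.269, 0.263 and 0.291 in WT. Relb to Rela was 0.0905 and 0.0705 in NemoDK_Ercc1, 0.0610 and 0.0849 in Ercc1, and 0.0276 to 0.0459 in WT. Both ratios were higher in every mutant library, and Rel to Rela was not separated (0.0931 to 0.160 in mutants, 0.103 to 0.144 in WT).

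Per length of principal transcripts, Rela still held 57.8% to 63.1% of the summed NF-kB subunit RNA in mutant libraries and 59.6% to 63.2% in WT. Nfkb2 held 12.7% to 14.2% in mutants and 7.98% to 10.2% in WT, and Relb held 4.74% to 6.59% in mutants and 2.02% to 3.47% in WT. Nfkb1 took 16.8% to 20.0% in mutants and 22.6% to 26.2% in WT. The non-canonical pair was thus a larger, but still minor, part of the subunit RNA in mutant livers.

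Of the 2 IkB genes, Nfkbia was called in the joint comparison and Nfkbib was not. Nfkbia, which encodes IkBalpha and is itself a classical NF-kB target, had 39.7 and 42.6 CPM in NemoDK_Ercc1, 30.5 and 34.3 CPM in Ercc1, and 48.1, 46.6, 43.3 and 40.3 CPM in WT. Both Ercc1 libraries lay below all others, while the NemoDK_Ercc1 libraries overlapped WT. Nfkbia fell by 0.46 ± 0.12 in Ercc1 (0.726-fold, adjusted p = 0.0243), and this call ended without either Ercc1 library, without WT library 1, with library size alone (-0.19, adjusted p = 0.207) and with age in the model (-0.25, adjusted p = 0.674). The joint fall of 0.29 ± 0.09 was just under the threshold (adjusted p = 0.0459) and 12 of 16 alternatives ended it.

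NemoDK_Ercc1 minus Ercc1 was 0.35 for Nfkbia, with a 95% interval of 0.05 to 0.64 before adjustment (edgeR adjusted p = 0.683). It was the member with the smallest p in that comparison, and it did not pass. Nfkbia to Rela was 0.701 and 0.835 in NemoDK_Ercc1, 0.465 and 0.596 in Ercc1, and 0.709 to 0.878 in WT. Nfkbib, the gene of IkBbeta, had 17.8 and 14.9 CPM in NemoDK_Ercc1, 23.5 and 18.4 CPM in Ercc1, and 18.7 to 21.9 CPM in WT, and passed in no comparison. Ccer2, on the opposite strand, overlaps 14.5% of its exons but had 0 counts in all 8 libraries, and Sirt2 overlaps 1.9%.

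The remaining intervals of NemoDK_Ercc1 minus Ercc1 show what 2 mice a group can tell. They ran from -0.30 to 0.36 for Ikbkb, -0.49 to 0.28 for Chuk, -0.47 to 0.08 for Rela, -0.71 to 0.66 for Relb and -0.48 to 0.28 for Nfkb2. For Nfkbib the interval was -0.72 to 0.00, for Nfkb1 -0.48 to 0.10 and for Rel -0.38 to 0.69. Of the 10 members, 7 had groups that did not overlap in this comparison, 2 higher and 5 lower, against 42.8% of all genes, 23.1% higher and 19.7% lower. These intervals do not show that the genotypes are alike.

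The promoters of 3 members hold a match to the kB consensus, the 10-base site that NF-kB dimers bind, and they differ in how the gene moved. The RefSeq table (GRCm38.p6) has the promoters of 7 of the 10 members, and the 250 bases before the transcription start were searched on both strands. Nfkb2, Nfkbia and Rel had matches, and Ikbkg, Chuk, Rela and Nfkbib had none in these windows. Ikbkb, Relb and Nfkb1 were not searched. Over all 32851 promoter windows, 3.9% held a match. Several genes have more than 1 promoter in the table, 12 windows in all for the 7 members, and 2 further promoters of Nfkb2 each held 1 match, which is not shown. Stretches of 30 bases around the matches in the first promoter of each gene are shown so that the sites can be compared, with the matched bases in capitals, 5′ to 3′ on the strand of the gene.
Nfkb2, distal site, chr19:46304689-46304718, plus strand: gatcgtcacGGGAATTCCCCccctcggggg
Nfkb2, proximal site, chr19:46304707-46304736, plus strand: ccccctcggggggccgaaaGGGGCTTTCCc
Nfkbia, chr12:55492657-55492686, minus strand: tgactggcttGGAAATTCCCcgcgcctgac
Rel, chr11:23771041-23771070, minus strand: gtaagcagcGGGAAATCCCCccccctcccc
The capitals of the distal Nfkb2 site and of the Rel site each hold 2 overlapping matches. These sites start 39 and 11 bases before the first start of Nfkb2, 29 before that of Nfkbia and 92 before that of Rel. Of the 3 genes with a match, Nfkb2 rose, Nfkbia fell and Rel did not pass the test. A match describes these letters only, and was not tested for binding.

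Bulk liver RNA cannot tell a change in the number of cells of a type from a change in RNA per cell. Cell type markers moved with the same groups. The marker counts below stand against 14.9% of all tested genes called higher and 13.9% called lower. A gene with few WT counts could pass the filter on low counts through the mutant libraries alone, which favours calls in the higher direction. All 8 of 8 monocyte and recruited macrophage markers were called higher in the mutant groups together, with a summed level of 139 and 170 CPM in NemoDK_Ercc1, 108 and 174 CPM in Ercc1, and 55.02 to 79.4 CPM in WT. Of these markers, Gpnmb and Ly6c2 had only 13 and 23 counts summed over the WT libraries, and passed the filter only through mutant libraries. B and plasma cell markers were called higher for 6 of 7 tested (33.2 and 38.4 CPM in NemoDK_Ercc1, 14.3 and 37.1 CPM in Ercc1, 8.69 to 13.2 CPM in WT). No marker of these 2 lists was at 0 in any library. Hepatocyte markers were called lower for 7 of 8, with summed levels of 78330 to 81960 CPM in the mutant libraries and 101000 to 133300 CPM in WT.

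Relb and Nfkb2, and NF-kB target genes below, are expressed in leukocytes, and the part of these cells in the results was not tested. Kupffer cell markers were called higher for 3 of 6, with sums that overlapped (Ercc1 library 1 at 286.8 CPM, WT library 2 at 390.5 CPM). Neutrophil markers were called higher for 3 of 3 tested, of 6 listed. In Ercc1 against WT all 3 were called higher, and in NemoDK_Ercc1 against WT only 1 (Csf3r), where 11.3% and 10.6% of all genes were. Summed levels were 6.94 and 5.47 CPM in NemoDK_Ercc1, 9.02 and 8.28 CPM in Ercc1, and 2.70 to 3.78 CPM in WT. The defining neutrophil marker Ly6g had 3 counts in NemoDK_Ercc1 and 2 in Ercc1, each in a single library, and 0 in WT. Of the other lists, dendritic cell markers had 2 of 6 called higher, stellate cell 2 of 6 and cholangiocyte 2 of 5. Endothelial cell markers had 2 of 6 higher with 1 lower. T and NK cell markers had 1 of 8 called higher, near the 14.9% of all genes. Their sums were 10.1 and 10.2 CPM in NemoDK_Ercc1, 5.24 and 8.86 CPM in Ercc1, and 4.90 to 6.10 CPM in WT. In NemoDK_Ercc1 against WT 2 of 8 were called higher, where 10.6% of all genes were.

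**Figure D4:**
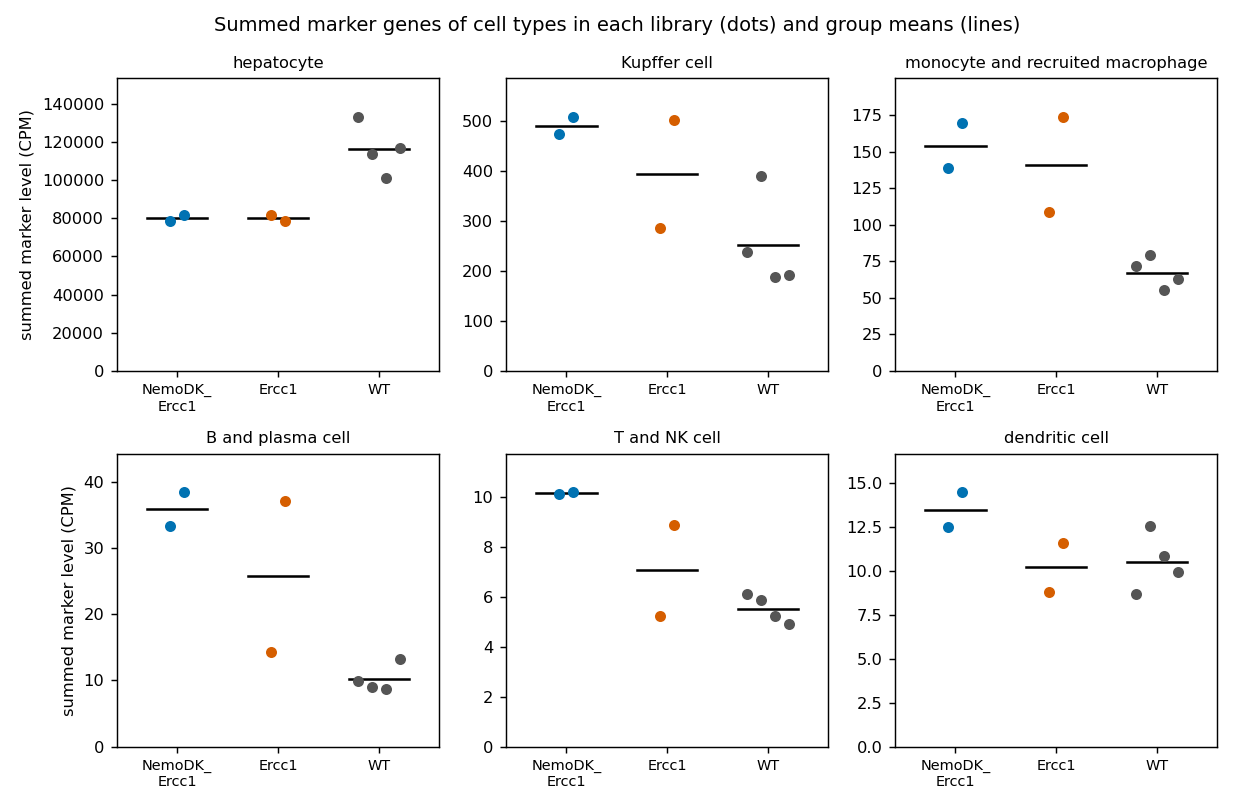
Summed level of listed marker genes of 6 cell types (y axis, CPM with TMM scaling) in NemoDK_Ercc1, Ercc1 and WT livers (x axis). Dots are libraries and lines are group means, over 2, 2 and 4 libraries. Hepatocyte sums are lower in every mutant library than in any WT library. Sums of the monocyte and recruited macrophage list and of the B and plasma cell list are higher in every mutant library. Kupffer cell sums overlap.

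Genes around the members in the pathway were followed in 7 lists, and each count is to be read against the same shares of all genes. In the non-canonical pathway, 6 of 12 were called higher in the mutant groups together and 1 lower, with a median log2 fold change of 0.58, against 14.9% and 13.9% of all genes. Cd40, a receptor of B cells and macrophages that feeds this pathway, had 1.41 and 1.53 CPM in NemoDK_Ercc1, 1.21 and 1.43 CPM in Ercc1, and 0.0873 to 0.339 CPM in WT (log2 difference 2.61, adjusted p = 0.0016). These are 2 to 7 counts in each WT library, and Cd40 passed the filter on low counts only through the mutant libraries. Tnfrsf11a, which encodes the receptor RANK, was higher by 1.49 ± 0.28, and Tnfrsf12a, the TWEAK receptor Fn14, by 1.151 ± 0.23. Tnfrsf12a had 25.9 CPM in Ercc1 library 1, against 12.9, 10.8 and 8.01 CPM in the remaining mutant libraries. With age as a covariate in edgeR neither call held (adjusted p = 0.172 for Tnfrsf11a and 0.464 for Tnfrsf12a).

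Downstream of those receptors, the adaptor Traf1 (1.62 ± 0.43) and the deubiquitinase Otud7b (0.55 ± 0.11) also rose. Birc3, which encodes the ubiquitin ligase cIAP2, fell by 0.58 ± 0.12. Traf3 was called higher in Ercc1 against WT, but not in NemoDK_Ercc1 against WT or in the joint comparison. Map3k14, the kinase NIK that activates IKKalpha, did not pass (0.61 ± 0.23, adjusted p = 0.0753). Leaving out WT library 3 gave 8 calls in this list (7 higher, 1 lower), and leaving out WT library 4 gave 6 (5 higher, 1 lower). Fewer genes were called without either NemoDK_Ercc1 library, which left a single mouse in that group. With library size alone 8 were higher and 0 lower, so Birc3 was no longer called lower.

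Receptors and adaptors of the canonical pathway showed no common direction, with 5 of 27 higher, 2 lower and a median of 0.00, where 14.9% and 13.9% of all genes were called higher and lower. Tlr2, a receptor for bacterial lipoproteins, had 5.16 and 6.95 CPM in NemoDK_Ercc1, 5.97 and 7.64 CPM in Ercc1, and 1.61 to 2.27 CPM in WT (log2 difference 1.69, adjusted p = 0.000619). Tab1, a partner of the kinase TAK1 upstream of IKK, was higher by 0.68 ± 0.16. The interleukin-1 receptor Il1r1 fell by 1.02 ± 0.25 and its accessory chain Il1rap by 1.22 ± 0.21. Without Ercc1 library 2, or without NemoDK_Ercc1 library 1 or 2, 4, 4 or 2 of this list were called, and with library size alone 9 were higher and 2 lower.

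Among other IkB-family and IKK-related genes, 2 of 11 were higher and 0 lower, a share near the 14.9% of all genes called higher. Nfkbie, which encodes IkBepsilon, had 5.13 and 4.15 CPM in NemoDK_Ercc1, 5.06 and 6.21 CPM in Ercc1, and 1.74 to 3.22 CPM in WT (0.88 ± 0.22, adjusted p = 0.0199). Ikbke, the IKK-related kinase IKKepsilon, had 57.5 and 57.7 CPM in NemoDK_Ercc1, 79.1 and 59.8 CPM in Ercc1, and 23.1 to 43.3 CPM in WT (0.91 ± 0.20, adjusted p = 0.0121). Ikbke thus rose in livers in which Ikbkb and Chuk were lower, and 1 call remained in this list without Ercc1 library 2 or NemoDK_Ercc1 library 1 (4 with library size alone, all higher).

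Against the same 14.9% and 13.9% of all genes, inhibitors and deubiquitinases gave 6 higher and 2 lower of 16 tested. Tnfaip3, the A20 protein, was higher by 0.73 ± 0.17 with overlapping groups, its partner Tnip1 by 0.81 ± 0.14, and the mitochondrial inhibitor Nlrx1 by 0.78 ± 0.10, while the ubiquitin ligase Itch fell by 0.66 ± 0.13. Without NemoDK_Ercc1 library 1, 4 of this list were called. The list of genes around DNA damage signaling, not all of which act on NEMO, gave 0 higher and 3 lower of 12. These were Erc1 (the IKK partner ELKS, -0.78 ± 0.10), Xiap (-0.52 ± 0.16) and Cradd (-0.57 ± 0.14). With library size alone this list had 2 higher and 1 lower, so its direction rests on scaling. Without WT library 3 there were again 3 calls, and without Ercc1 library 2 or either NemoDK_Ercc1 library 1 was left.

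Nuclear cofactors of NF-kB gave 0 higher and 6 lower of 12. The acetyltransferase genes Crebbp, Ep300 and Kat2b fell by 0.63 ± 0.08, 0.61 ± 0.14 and 0.63 ± 0.15. Without Ercc1 library 1, 3 of the list were called, and without either NemoDK_Ercc1 library 2 were. With library size alone the list had 2 higher and 1 lower, so its direction rests on scaling. NF-kB target readouts gave 9 higher and 1 lower of 17 tested (of 21 listed, median 0.96), against 14.9% and 13.9% of all genes. Of the higher ones, Bcl2a1b had 3 counts summed over the WT libraries and 56 over the mutant libraries, and passed the filter on low counts only through the latter.

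Among those targets, the adhesion molecule gene Icam1 had 24.8 and 19.2 CPM in NemoDK_Ercc1, 25.1 and 23.4 CPM in Ercc1, and 9.39 to 13.6 CPM in WT (0.96 ± 0.15, adjusted p = 0.00225). The chemokine gene Ccl2 had 1.48 and 0.720 CPM in NemoDK_Ercc1, 2.38 and 2.61 CPM in Ercc1, and 0.131 to 0.655 CPM in WT (1.97 ± 0.44, adjusted p = 0.0121). Saa3, an acute-phase gene, went the other way (-1.52 ± 0.22).

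None of the 7 lists had a call between NemoDK_Ercc1 and Ercc1 in edgeR. The smallest p values there belonged to 2 genes that were lower in NemoDK_Ercc1. Tnfaip2, a TNF-induced gene, had 25.2 and 23.8 CPM in NemoDK_Ercc1, 67.6 and 51.0 CPM in Ercc1, and 29.6 to 38.6 CPM in WT. Bcl3, an atypical IkB protein that works with p50 and p52 in the nucleus, had 19.3 and 16.1 CPM in NemoDK_Ercc1, 50.4 and 28.3 CPM in Ercc1, and 23.9 to 27.3 CPM in WT. NemoDK_Ercc1 minus Ercc1 was -1.27 ± 0.18 for Tnfaip2 and -1.152 ± 0.24 for Bcl3 (edgeR adjusted p = 0.539 for both). DESeq2 called both genes (adjusted p = 1.83e-05 and 0.0114), as did edgeR with no filter on low counts (0.00191 and 0.0121), while limma-voom did not (0.437 and 0.552). In both, the NemoDK_Ercc1 libraries lay below every WT library and the Ercc1 libraries above. Tnfaip3, Tnfrsf12a and Traf3 also had lower levels in both NemoDK_Ercc1 libraries than in either Ercc1 library, with edgeR adjusted p of 0.653, 0.648 and 0.648. Other named genes were separated the other way, among them Tnfrsf1b (41.9 and 53.8 CPM in NemoDK_Ercc1, 26.4 and 33.8 CPM in Ercc1). Tlr4 was too (1.71 and 1.57 CPM, against 0.660 and 1.12 CPM), with edgeR adjusted p of 0.694 and 0.73 for these genes. Of all tested genes, 19.7% were lower and 23.1% higher without overlap in this comparison.

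**Figure D5:**
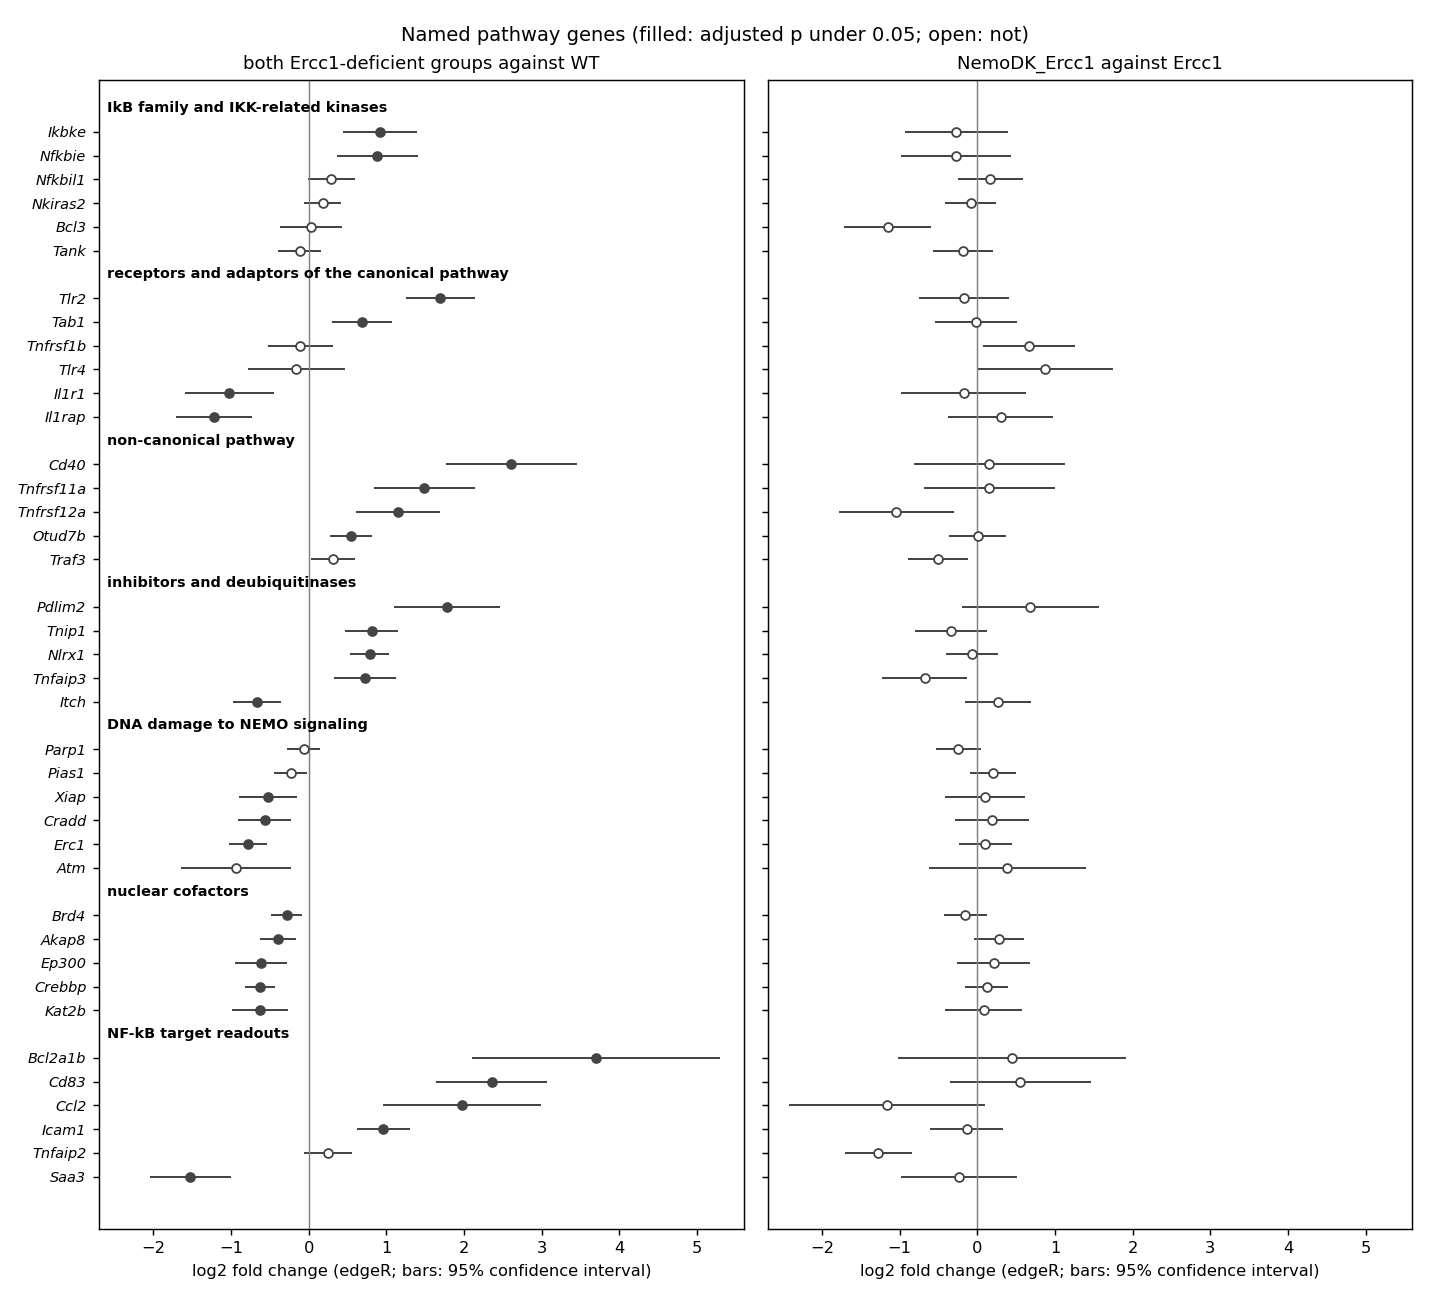
Log2 fold change (x axis) of the named genes of the 7 pathway lists (y axis) for both Ercc1-deficient groups against WT (left) and NemoDK_Ercc1 against Ercc1 (right). Bars are 95% confidence intervals from edgeR, and filled dots have an adjusted p under 0.05. Filled dots occur on the left only.

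For each member called in the joint comparison, the genes with the most similar pattern over the 8 libraries were found among 11875 genes by the root mean square difference of centred log2 CPM. For Ikbkg these were Dnajc10 (0.0366, against a spread of 0.248 for Ikbkg itself), Neurl2 and Thg1l. For Relb they were H1f2 (0.0568), Fxyd5 and St3gal2, and for Nfkb2 they were Dpysl3 (0.0578), Nlrx1 and Slc35f5. For Ikbkb they were Jtb (0.0382), Cnot8 and Gstz1, for Chuk they included Ldah (0.0524) and Aak1, and for Nfkbia they were Rsrp1 (0.0507), Git2 and Vps9d1. Nlrx1 is also in the list of inhibitors above. Genes picked as the closest of 11875 are near by choice, and a link to the member was not tested. In the joint comparison Neurl2, Thg1l, Rsrp1 and Git2 were not called (edgeR adjusted p = 0.071, 0.0973, 0.0909 and 0.114).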

How the data were processed

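Total RNA of 8 livers was sequenced from stranded libraries, per the labels' protocols. The authors deposited raw counts per gene. The submitters' processing notes name HISAT2 2.1.0, featureCounts and FastQC, with the build GRCm38 (mm10). The annotation, strand setting and handling of reads with several alignments are not given in the sources used here, so genes that overlap others are less certain.

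Members and gene lists were chosen with earlier results of these data known, and no list is independent support. Counts were filtered (filterByExpr), TMM-scaled and fitted in 1 edgeR 4.0.16 quasi-likelihood model of 3 groups (R 4.3.3, 5 residual degrees of freedom), with Benjamini-Hochberg adjustment over 15598 genes and a threshold of 0.05. The joint contrast is the mean of the 2 mutant groups minus WT. Each SE was back-calculated from the log2 fold change and edgeR's F statistic. The fit was also run on counts simulated from its own dispersions, with changes shared by both mutant groups. That run held no age effect and no difference between the mutant groups, so it checks neither. Lengths came from GENCODE M21, which held 99.5% of the identifiers. Replicate numbers follow accession order. Mice of a group are separate biological replicates, per the series' design text. Named genes were the members, up to 4 per pathway list with the smallest p in the joint contrast and up to 2 in NemoDK_Ercc1 against Ercc1, overlapping genes, and the 3 nearest patterns (average log2 CPM of at least 1), of which 1 is not reported here. Others (Traf1, Birc3 and Map3k14) were chosen after their values were seen. Alternatives were RLE, upper-quartile and library-size scaling, other filters, DESeq2 1.42.0, limma-voom (limma 3.58.1), fewer groups, age as a covariate, a threshold of 0.01 and each library left out. Exon length was added after seeing the data.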

Additional observations from a re-analysis of the deposited data

Results flagged for a closer look

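Within the 4 WT libraries, 80 values were checked for a sample far from the other 3, of which about 1 in 20 would be marked by chance, and 9 were. No member and no ratio between members was among them. WT library 3 had 0 CPM of Xist, against 452 to 495 in the other WT libraries, and 3087 counts of 4 Y-linked genes, against 0. It also stood apart for Il1rap (165.7 CPM, others 93.1 to 103), Kat2b (129.2 CPM, others 89.2 to 94.0) and Cd83 (0.655 CPM, others 1.62 to 1.66). The same held for the summed list around DNA damage signaling (454.9 CPM, others 389.5 to 390.6). WT library 4 was low for Nfkbie (1.737 CPM, others 3.05 to 3.22). WT library 1 was high for Nlrx1 (17.29 CPM, others 14.1 to 14.6) and Tnfaip2 (38.6 CPM, others 29.6 to 30.4).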

How the results depend on the processing

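Over 40 member results and 670 alternatives, 582 kept direction and side of the threshold, 48 lost a call, 9 gained one and 31 changed sign, none of them a call. The joint call of Nfkb2 held in all 16 alternatives. With age as a covariate, which is partly confounded with the older Ercc1 mice, calls fell to 41 genes and 0 members (Ercc1 against WT) and to 827 genes and 1 member (joint), and Relb had adjusted p = 0.106. The joint calls of most named pathway genes also ended with age, among them Cd40, Icam1, Ccl2, Ikbke, Nfkbie, Il1r1, Il1rap and Tnfaip3. Those of Tlr2, Tnip1, Nlrx1, Pdlim2, Erc1 and Saa3 held. At adjusted p under 0.01 there were 1223 genes and 1 member in Ercc1 against WT, 926 and 0 in NemoDK_Ercc1 against WT, and 1999 and 2 jointly. Upper-quartile factors left 3 joint members. Genes called between NemoDK_Ercc1 and Ercc1 were 65 without a filter, 71 with DESeq2 and 1 with only those groups.

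Leaving out each library in turn gave 1157 to 3408 genes and 1 to 5 members in Ercc1 against WT, 0 to 2 genes and 0 members in NemoDK_Ercc1 against Ercc1, 537 to 3016 genes and 0 to 3 members in NemoDK_Ercc1 against WT, and 2495 to 4332 genes and 2 to 5 members jointly.

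Signs changed as follows, in log2 fold change. With library size alone, Rel (0.1862) and Nfkb1 (0.1134) in Ercc1 against WT, Rela (0.2537) and Nfkbia (0.1535) in NemoDK_Ercc1 against WT, and Rel (0.2633), Nfkb1 (0.019) and Nfkbib (0.1451) jointly became positive. With upper-quartile factors Relb was 0.0017 in NemoDK_Ercc1 against Ercc1, Rela 0.0846 in NemoDK_Ercc1 against WT and Rel 0.0854 jointly. Joint Rel was 7e-04 with RLE and 0.0091 with at least 1 CPM. With age, Nfkb1 (0.1511) and Nfkbib (-0.4552) changed sign in Ercc1 against WT, Nfkbib (0.098) and Tnfrsf12a (0.2099) in NemoDK_Ercc1 against Ercc1, and Rela (-0.0111) jointly. Without single libraries, Rel ran from -0.3471 to 0.1468 and Nfkbib from -0.1323 to 0.2235 in Ercc1 against WT. Relb ran from -0.3031 to 0.2054 and Rel from -0.0734 to 0.4196 in NemoDK_Ercc1 against Ercc1. Rela ran from -0.0922 to 0.0568 and Rel from -0.1356 to 0.2611 in NemoDK_Ercc1 against WT, and Rel from -0.1373 to 0.1101 jointly.

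No paired analysis was possible because replicate numbers are only accession order. Fitting only the groups compared is the same fit for the joint contrast. The cause of these changes was not tested. Few mice per group, age and 1 library against its label limit all comparisons.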
